A study of Mus musculus with 8 samples.

Results

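The genes described here are those of the proteins of the cytosolic ribosome, 55 of which were listed by name together with Rpl3l, the muscle paralog of Rpl3. A gene was taken from the deposited tables by its name, and 54 of the 55 were found among 43239 named genes, 31 of them of the large subunit and 23 of the small subunit. Rpl13 was not analysed here. RNA had been sequenced from the quadriceps of 8 female mice aged 6 months, 4 labelled knockout (KO), with the genotype Mss51-/-, and 4 labelled wild type (WT), with 1 library for each mouse. The labels give neither the deleted stretch of Mss51 nor how the allele was made, and they give no batch or date. Poly(A) RNA was selected, and the values are FPKM, that is, fragments counted for a gene divided by its length in kilobases and by the mapped fragments in M (mega). Fold changes set libraries labelled KO over those labelled WT.

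A ribosome reads messenger RNA with its small subunit, where codons and transfer RNAs are matched, and joins amino acids on its large subunit. Most ribosomal proteins are present in equal numbers in the ribosome, and their mRNAs are known as TOP mRNAs, since they begin with a C followed by a run of pyrimidines through which growth signals, by way of mTORC1 and LARP1, set how much they are translated. Skeletal and cardiac muscle have a ribosome of their own kind, in which RPL3L takes the place of RPL3 near the peptidyl transferase centre. Rpl22l1 is the paralog of Rpl22, a protein at the surface of the large subunit.

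The sequence around the start of transcription is shown first, since TOP mRNAs begin with a pyrimidine run. The 60 bases that run from 40 before to 20 after the first listed start are given 5′ to 3′ on the strand of each gene, from the promoter table of RefSeq on build GRCm38.p6. They are shown for the paralogs with an entry and for members at both ends of the order of fold changes below. Capitals mark CAGCTG in Rpl3l, a form of the E-box that myogenic factors are known to bind, and in the others the longest run of C and T where it reaches 8 bases. A marked run can lie anywhere in the window and need not be part of the mRNA. The runs of Rpl22 (14 bases from position -39) and Rpl4 (14 bases from position -18) lie wholly before the listed start.
Rpl3l (chr17:24727786-24727845, plus strand): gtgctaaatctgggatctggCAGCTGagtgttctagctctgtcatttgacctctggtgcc
Rpl22 (chr4:152325686-152325745, plus strand): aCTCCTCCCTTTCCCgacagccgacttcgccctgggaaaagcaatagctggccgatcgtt
Rpl22l1 (chr3:28805468-28805527, plus strand): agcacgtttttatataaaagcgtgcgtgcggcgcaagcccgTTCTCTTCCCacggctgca
Rplp2 (chr7:141447611-141447670, plus strand): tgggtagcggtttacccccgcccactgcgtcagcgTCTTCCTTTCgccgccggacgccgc
Rpl4 (chr9:64173347-64173406, plus strand): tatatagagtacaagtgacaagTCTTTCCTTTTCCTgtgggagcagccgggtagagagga
Rps13 (chr7:116334171-116334230, minus strand): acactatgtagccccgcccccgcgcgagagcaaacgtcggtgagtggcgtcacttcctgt
Rps6 (chr4:86857348-86857407, minus strand): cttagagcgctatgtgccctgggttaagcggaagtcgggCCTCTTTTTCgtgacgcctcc

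Of the 54 genes, 44 matched an entry, and the others were Rpl3, Rpl7, Rpl8, Rpl30, Rpl32, Rplp1, Rps14, Rps20, Rps27a and Rps29. A run of at least 8 pyrimidines, sought on the gene's own strand in the 60-base window, was present in 22 of the 44 (50.0%), against 24.0% of all 27025 promoters in the table. Runs before the listed start were counted too, so this is not a count of TOP mRNAs. The longest run had a median of 7.5 bases in the members, against 6.0 in all promoters. Rpl7a had a run of 21 bases, Rpl35 one of 18, and Rpl3l none over 5. CAGCTG, which reads the same on both strands, lay in that window in 1 of the 44 members (2.27%), the muscle paralog Rpl3l, against 3.62% of all promoters. In the whole promoter window of 300 bases it lay in 3 of 44 (6.82%), against 16.1% of all promoters.

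Mss51 itself, which encodes a mitochondrial protein of muscle, went against the genotype labels. It had 339.6, 201, 216 and 207 FPKM in KO-labelled replicates 1 to 4, against 22.9, 37.0, 27.5 and 24.8 FPKM in WT-labelled replicates 1 to 4. All 4 libraries labelled KO were above all 4 labelled WT (log2 fold change 3.07 with an SE of 0.20, limma adjusted p = 0.000643), so every direction below is one between labels. A rough estimate of depth was 46.6 to 54.3 M fragments in the libraries labelled KO and 44.0 to 56.3 M in those labelled WT. The window of values behind this estimate bounded it in advance, so its likeness between labels says little. Fibre markers such as Tnnc2, fast skeletal troponin C, were high in both groups (means of 15042 FPKM under the KO label and 14670.5 FPKM under the WT label), while Myh4 was listed at 0 in all 8 libraries, Atp2a1 in 7 and Tnnt3 in 4. WT replicate 1 stood apart for the ribosomal proteins, and results are given with and without it.

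The ribosomal protein mRNAs were among the most abundant in the muscle. Averaged over the 8 libraries, their levels in FPKM ran between 77.4 (Rpl3) and 2587 (Rplp1), with a median of 433, against a median of 8.65 for the 11878 genes tested, those that averaged 1 FPKM or more. All 54 passed that filter, and the lowest lay at the 91.1th percentile of it. FPKM is per length, and the highest member was 33.4-fold above the lowest. How far levels of different genes can be set side by side depends on the annotation behind the FPKM, which is not given. The large subunit had a median level of 337 FPKM and the small subunit one of 509 FPKM. Rplp1, an acidic protein of the stalk that recruits elongation factors, was followed in the large subunit by Rpl34 at 1794 FPKM and Rpl32 at 947 FPKM. Rps27 at 1821 FPKM, Rps12 at 1522 FPKM and Rps21 at 1241 FPKM led the small subunit. At the low end stood Rpl3 (77.4 FPKM), Rpl37 (121 FPKM) and Rpl35 (169 FPKM) of the large subunit, and Rps20 (177 FPKM), Rpsa (216 FPKM) and Rps3 (250 FPKM) of the small.

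**Figure D1:**
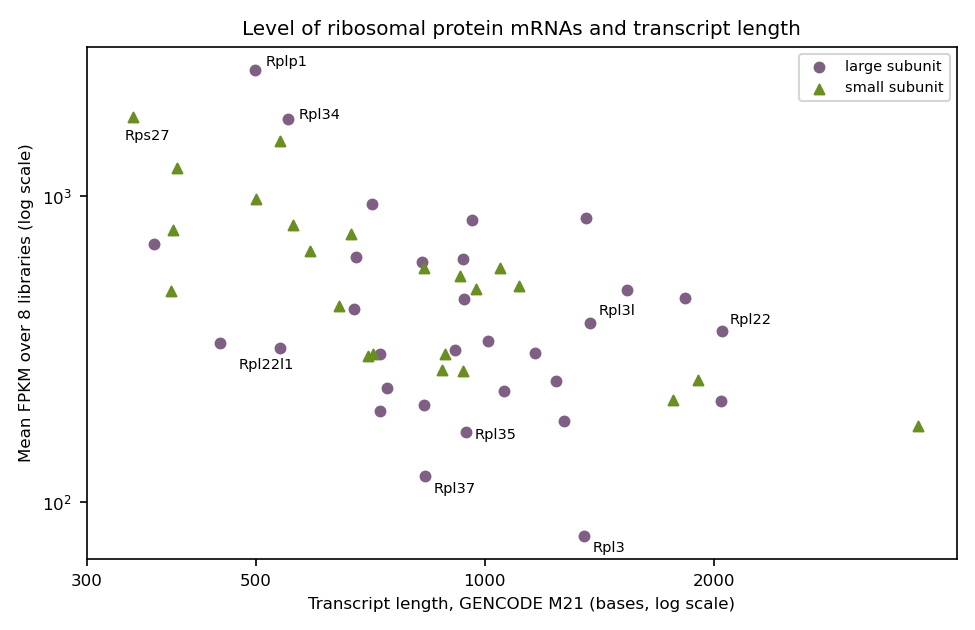
Mean FPKM over the 8 libraries (log scale) against transcript length in GENCODE M21 (bases, log scale) for the 54 ribosomal protein genes, circles for the large and triangles for the small subunit. The shortest transcripts, such as Rps27 at 345 bases, lie among the highest levels, and Rpl3 lies lowest at 77.4 FPKM although its transcript is about as long as that of Rpl3l.

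Transcripts of these genes are short. Their annotated length ran between 345 bases (Rps27) and 3706 bases (Rps20), with a median of 856.5 bases, against 2664.5 bases for the tested genes that have a length. Across the 54 members the shorter ones had the higher levels (Pearson r = -0.54 and Spearman rho = -0.52 of level and length on log scales). That is a description across genes, which share the same 8 libraries and whose FPKM is itself divided by length.

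By FPKM, Rpl3l was the main Rpl3 gene of the muscle under both labels. Rpl3 shared its locus in the deposited data with 4 other named entries, and Rpl3l with none. Whether that lowered the FPKM of Rpl3 was not tested. Rpl3l, whose transcript is 1375 bases long, had 400.2, 383, 422 and 375 FPKM in KO-labelled replicates 1 to 4, against 345, 404, 348 and 400.5 FPKM in WT-labelled replicates 1 to 4. Rpl3, with 1351 bases, had 81.2, 77.9, 73.9 and 86.6 FPKM under the KO label, against 62.4, 72.9, 74.3 and 89.8 FPKM under the WT label. The groups overlapped for both genes, and the muscle paralog was above its ubiquitous copy in every library. Rpl3l made up 83.1% ± 1.57 of the summed FPKM of the pair in libraries labelled KO and 83.4% ± 1.55 in those labelled WT (SD, n = 4 each). The log2 ratio of Rpl3l to Rpl3 differed by -0.024 between labels, with an SE of 0.11 (two-sided exact permutation test, p = 0.886). Over the 3 paralog ratios compared, each adjusted p was 0.914, and 0.0286 is the smallest p that 4 against 4 libraries allow.

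Taken singly, Rpl3l had a log2 fold change of 0.079 (SE 0.08, limma adjusted p = 0.784) and Rpl3 one of 0.10 (SE 0.11, limma adjusted p = 0.791). Without WT replicate 1 these were 0.041 and 0.020, and both signs turned under other scalings. Summed, Rpl3l and Rpl3 came to 475 ± 16.9 FPKM under the KO label and 449 ± 40.7 FPKM under the WT label (SD, n = 4 each). The median over all members was 450.3 ± 20.7 FPKM under the KO label and 414 ± 57.3 FPKM under the WT label. The sum of the pair therefore lay near the middle of the members, while Rpl3 alone was the lowest of them. Across the 8 libraries the levels of Rpl3 and Rpl3l had a Pearson r of 0.44 (exact permutation p = 0.293) and a Spearman rho of 0.095 (exact permutation p = 0.840). With the group means subtracted r was 0.35, and without WT replicates 1 and 3, the libraries farthest from the median of Rpl3l, it was -0.51 (exact permutation p = 0.311). The positive value rested on WT replicate 1, without which r was -0.012.

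**Figure D2:**
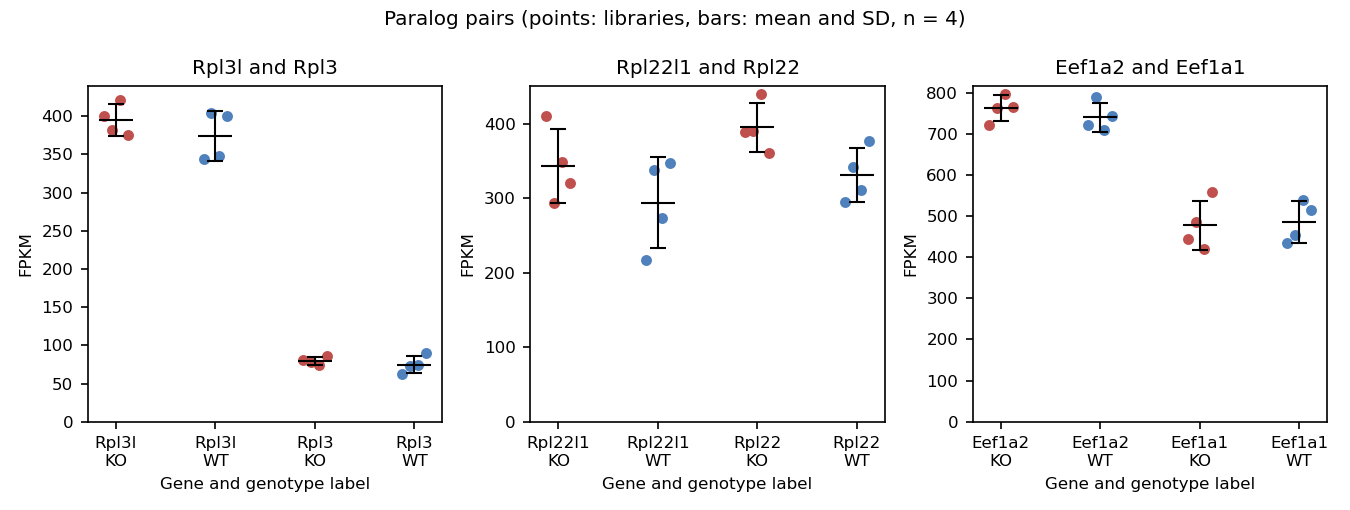
FPKM of 3 paralog pairs in each library, with KO-labelled libraries left of WT-labelled ones; points are libraries, and bars give the mean and SD of 4. Rpl3l, between 345 and 422 FPKM, lies above every value of Rpl3, while Rpl22l1 and Rpl22 overlap.

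The second pair was more evenly shared. Rpl22l1 had 411, 294, 349 and 320.1 FPKM in KO-labelled replicates 1 to 4, against 217, 338, 274 and 348 FPKM in WT-labelled replicates 1 to 4. Rpl22 had 389.5, 391, 439.8 and 361 FPKM under the KO label, against 294, 342, 311 and 377 FPKM under the WT label. Neither gene separated the groups, and for Rpl22 WT replicate 4 reached above KO replicate 4. Rpl22l1 made up 46.4% ± 3.72 of the pair under the KO label and 46.7% ± 3.08 under the WT label (SD, n = 4 each). The log2 ratio differed by -0.022 with an SE of 0.14 (two-sided exact permutation test, p = 0.914). Rpl22 had a log2 fold change of 0.26 with an SE of 0.10 and an unadjusted p of 0.0274 in limma (limma adjusted p = 0.426), and 0.20 without WT replicate 1. Rpl22l1 had one of 0.24 with an SE of 0.16 (limma adjusted p = 0.672), and 0.099 without WT replicate 1.

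A muscle pair among the elongation factors was set beside them. Eef1a2, the form of the factor that brings transfer RNAs to the ribosome in adult muscle and neurons, had 761.9 ± 31.1 FPKM under the KO label and 741 ± 35.3 FPKM under the WT label (SD, n = 4 each). Eef1a1, the widespread form, had 477 ± 60.5 FPKM under the KO label and 485 ± 50.0 FPKM under the WT label. Eef1a2 made up 61.6% ± 3.14 of the pair under the KO label and 60.5% ± 3.08 under the WT label, and the log2 ratio differed by 0.069 with an SE of 0.13 (two-sided exact permutation test, p = 0.629).

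Between the labels the members lay on one side of 0 but by little. The log2 fold change was above 0 for 52 of the 54 members (96.3%), against 54.4% of all tested genes, and none passed an adjusted p of 0.05 in limma, where 0.0505% of all tested genes did, all of them higher under the KO label. An unadjusted p under 0.05 in limma was reached by 2 members with a positive fold change, Rps13 and Rpl22, and by none with a negative one, against 7.5% and 2.76% of all tested genes. The median log2 fold change was 0.14 over the members, 0.11 in the large and 0.16 in the small subunit, against 0.019 over all tested genes, which are mostly longer transcripts, with 0.12 under 600 bases and 0.13 for 600 to under 1000 bases. Single values ran between -0.018 (Rpl4) and 0.35 (Rps13), with SEs of 0.07 to 0.17. Without WT replicate 1 the median was 0.043 (44 of 54 above 0, against 54% of all tested genes), and without WT replicate 4 it was 0.19 with all 54 above 0 (55.7% of all tested genes). The count with an unadjusted p under 0.05 moved with the libraries too: 1 without WT replicate 1 (where 5.4% of all tested genes did so), 1 without KO replicate 3 (6.15%) or WT replicate 3 (5.99%), 5 without KO replicate 1 (9.5%), 4 without WT replicate 2 (6.19%), and 14 without WT replicate 4, where 7.93% of all tested genes did so. The 5 members without KO replicate 1 are 9.26% of the 54, about the share of all genes. It was 0 with TPM (0.98% of all tested genes) and 5 with weighted libraries (8.0%). Fewer cells of a type and less RNA per cell cannot be told apart in such bulk samples.

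Scaling moved the split as well. With every library brought to the same summed FPKM of its named genes (TPM), 11 of 54 members were above 0 with a median of -0.076, where all genes had a median of -0.18 and 18.03% above 0. In 1 library each, a single entry, Atg7 at 921731 FPKM in KO replicate 4 and Gm22953 at 469610 FPKM in WT replicate 3, weighed on those sums. Rescaling over genes above 0 in every library left 38 of 54 members (70.4%) above 0, against 34.0% of all tested genes. The medians were 0.041 over the members and -0.072 over all genes. Quantile normalization left 27 of 54 members (50%) above 0, against 46.6% of all tested genes, with medians of -4.4e-05 and -0.015. TPM and the rescaling over genes above 0 in every library each divide a library by 1 number. All fold changes but those of low genes then move by nearly the same amount. That the median of the members stayed above that of all genes, as with FPKM as deposited, was therefore largely fixed in advance.

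**Figure D3:**
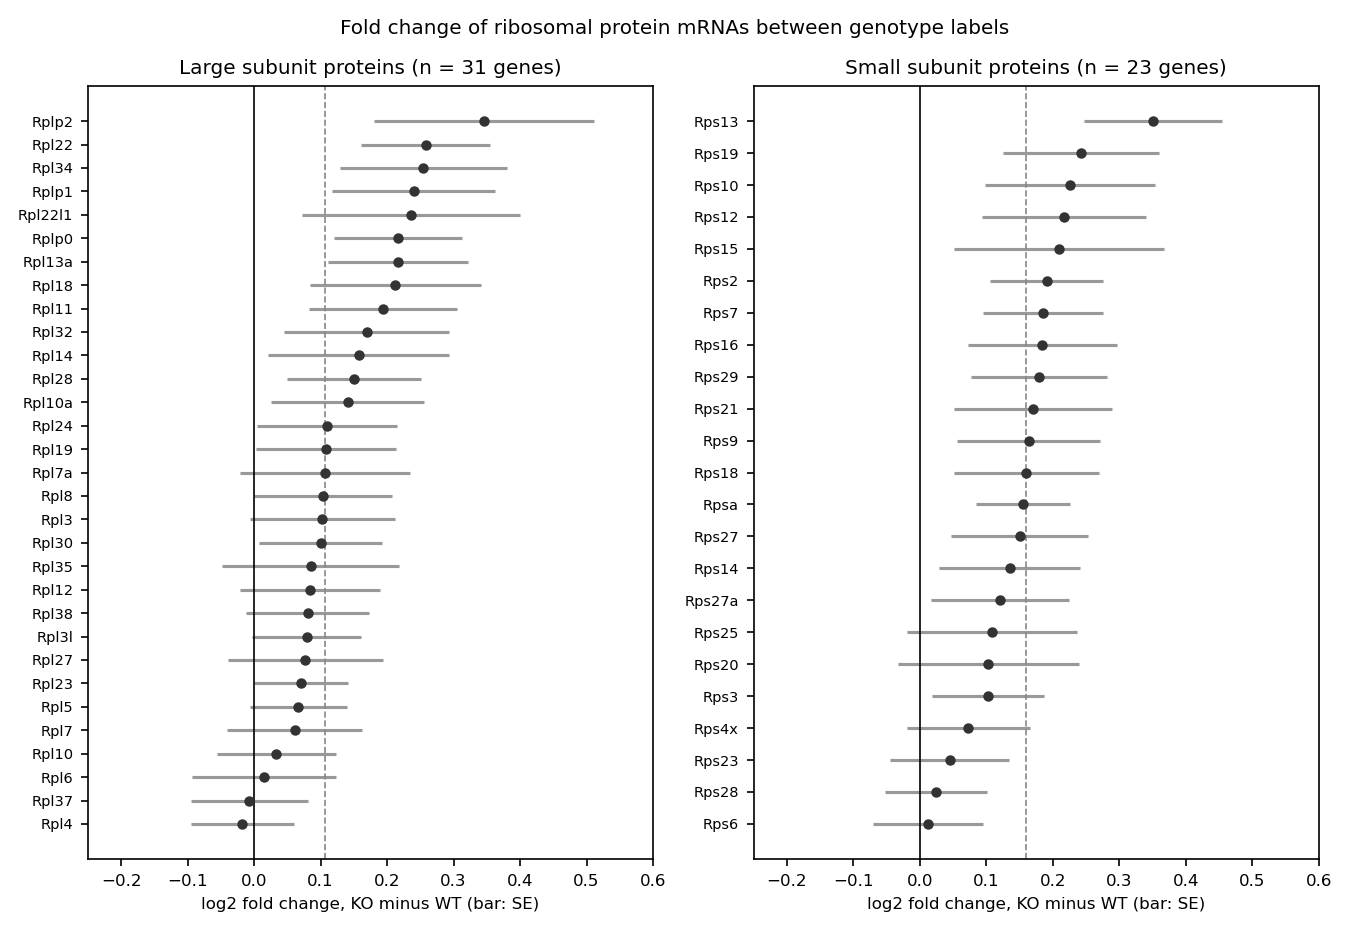
Log2 fold change, KO minus WT, of each ribosomal protein gene in the large (left) and small (right) subunit, with bars for the SE and a dashed line at the median of the subunit. With FPKM as deposited 52 of 54 points lie right of 0, between -0.018 and 0.35, but 11 do so with libraries rescaled to TPM and 27 after quantile normalization.

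The stalk proteins, which draw in the GTPases of translation, stood toward the upper end. Rplp2 had 361, 383, 370 and 356 FPKM in KO-labelled replicates 1 to 4, against 217, 370, 248 and 352 FPKM in WT-labelled replicates 1 to 4. Rplp0, the base of the stalk, had 851, 962, 907 and 919.5 FPKM under the KO label, against 659.5, 848, 809 and 827 FPKM under the WT label. WT replicates 1 and 3 were low for Rplp2 and the groups overlapped, while for Rplp0 they did not overlap, by a gap between 851 FPKM in KO replicate 1 and 848 FPKM in WT replicate 2. The log2 fold change was 0.35 for Rplp2 (SE 0.17, limma adjusted p = 0.524), 0.22 for Rplp0 (SE 0.10, limma adjusted p = 0.487) and 0.24 for Rplp1 (SE 0.12, limma adjusted p = 0.540). Without WT replicate 1 it was 0.21 for Rplp2 and 0.13 for Rplp0.

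Rpl34 of the large subunit also separated the groups. It had 1822, 2095, 1999 and 1863 FPKM in KO-labelled replicates 1 to 4, against 1267, 1802, 1726 and 1781 FPKM in WT-labelled replicates 1 to 4. Its WT replicate 1 was far below the other libraries, and the remaining gap between the groups was small. The log2 fold change was 0.25 (SE 0.13, limma adjusted p = 0.532), and 0.13 without WT replicate 1.

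Rpl4 and Rpl37 had the lowest fold changes of the large subunit. Rpl4, which lines the exit tunnel, had 526, 454, 506 and 482 FPKM in KO-labelled replicates 1 to 4, against 459, 510.2, 492 and 531 FPKM in WT-labelled replicates 1 to 4. Rpl37 had 126, 126, 127 and 105 FPKM under the KO label, against 109.7, 119, 127 and 130.0 FPKM under the WT label. Both ran through each other between groups, with log2 fold changes of -0.018 for Rpl4 (SE 0.08, limma adjusted p = 0.958) and -0.0076 for Rpl37 (SE 0.09, limma adjusted p = 0.985). Both signs turned when single libraries were left out. Rpl5 and Rpl11, which bind the 5S ribosomal RNA and are known to restrain Mdm2 when free of the ribosome, had log2 fold changes of 0.067 (SE 0.07, limma adjusted p = 0.801) and 0.19 (SE 0.11, limma adjusted p = 0.593). The 22 large subunit members for which values by library are not given had log2 fold changes between 0.015 and 0.24. Their SEs were 0.07 to 0.14. All 22 were above 0 with FPKM as deposited (54.4% of all tested genes), and 17 were without WT replicate 1 (54.0%).

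In the small subunit all 23 members had a fold change above 0 with FPKM as deposited, against 19 with rescaling over genes above 0 in every library, 14 after quantile normalization and 4 with TPM. Rps13, which takes part in a bridge to the large subunit, had 648, 767, 775 and 769 FPKM in KO-labelled replicates 1 to 4, against 486, 607, 606 and 626 FPKM in WT-labelled replicates 1 to 4. Its groups did not overlap, although KO replicate 1 lay close to the upper WT libraries. The log2 fold change was 0.35, the highest of the 54, with an SE of 0.10 and an unadjusted p of 0.0086 in limma, but the limma adjusted p over all tested genes was 0.353. It was 0.27 without WT replicate 1 and 0.22 when each library was shifted by the median of its ribosomal proteins.

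Rps19, whose human gene is known for Diamond-Blackfan anaemia, was next in the small subunit. It had 299.7, 343, 341 and 313 FPKM in KO-labelled replicates 1 to 4, against 217, 303, 276 and 309 FPKM in WT-labelled replicates 1 to 4. The groups overlapped, since KO replicate 1 lay below WT replicates 2 and 4, and the log2 fold change was 0.24 (SE 0.12, limma adjusted p = 0.529), against 0.13 without WT replicate 1. Rpsa, which is also known as a receptor of laminin, had 214, 236, 221 and 237 FPKM under the KO label, against 186, 211, 212 and 207 FPKM under the WT label. Those groups did not overlap, by a gap of a few FPKM, and the log2 fold change was 0.16 (SE 0.07, limma adjusted p = 0.499), against 0.11 without WT replicate 1 and -0.059 with TPM.

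Rps6, the protein that the S6 kinases phosphorylate, and Rps28 had the lowest fold changes of the small subunit. Rps6 had 261, 270.3, 302 and 253 FPKM in KO-labelled replicates 1 to 4, against 241, 271, 279 and 286 FPKM in WT-labelled replicates 1 to 4. Rps28 had 512, 491, 485 and 487 FPKM under the KO label, against 435, 475, 515 and 522 FPKM under the WT label. Neither gene separated the groups, and both had their lowest value in WT replicate 1. The log2 fold changes were 0.013 for Rps6 (SE 0.08, limma adjusted p = 0.973) and 0.024 for Rps28 (SE 0.08, limma adjusted p = 0.940), and both were below 0 without WT replicate 1, at -0.039 and -0.029. The other 18 small subunit members had log2 fold changes between 0.045 and 0.23, with SEs of 0.08 to 0.16.

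Groups did not overlap, with the libraries labelled KO higher, for 4 of the 54 members, Rps13, Rpl34, Rplp0 and Rpsa, against 3.89% of all tested genes; these names were picked after their values were seen. For no member did the groups separate with the libraries labelled KO lower, against 1.61% of all tested genes. None of the 4 kept that separation with TPM, quantile normalization or the length trend removed, where no member had it, and 1 member did with rescaling over genes above 0 in every library (1.34% of all tested genes). With FPKM as deposited the count was 7 (13%) without KO replicate 1, against 9.35% of all tested genes. It was 6 (11.1%) without KO replicate 2 (5.19% of all tested genes), KO replicate 4 (5.56%) or WT replicate 2 (5.6%). Without WT replicate 4 it was 15 (27.8%), against 7.28% of all tested genes. It stayed at 4 (7.41%) without KO replicate 3 (5.56%), WT replicate 1 (5.1%) or WT replicate 3 (5.5%). The share over all genes was above 3.89% in each of these runs.

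The members moved together from library to library, and WT replicate 1 was the lowest. A deviation is the log2(FPKM + 0.5) of a gene in a library minus its mean over the 8 libraries. Its median over the members was 0.076, 0.018, 0.15 and 0.037 in KO-labelled replicates 1 to 4, against -0.32, 0.020, -0.062 and 0.10 in WT-labelled replicates 1 to 4. WT replicates 2 and 4 lay within the range of the libraries labelled KO, and WT replicate 1 alone was far below. Over all tested genes the median deviation stayed between -0.043 and 0.065 in every library. WT replicate 1 held the lowest of the 8 values for 51 of the 54 members, against 16.5% of all tested genes. Both subunits shared the shift, with medians in WT replicate 1 of -0.32 for the large and -0.33 for the small, and the difference of the subunit medians was between -0.043 and 0.047 in all 8 libraries.

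**Figure D4:**
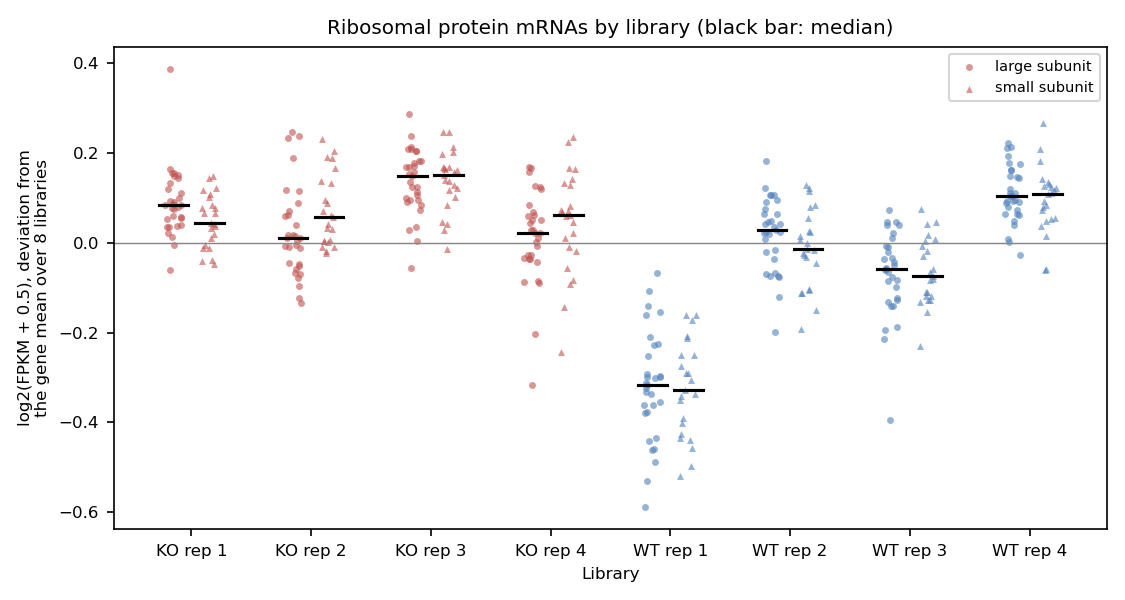
Deviation of log2(FPKM + 0.5) of each ribosomal protein gene from its mean over the 8 libraries, by library, with KO-labelled libraries left of WT-labelled ones, circles for the large and triangles for the small subunit, and black bars for medians. The members of WT replicate 1 centre on -0.32, apart from the other 7 libraries, whose medians lie between -0.062 and 0.15.

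That shift set the spread. The SD of a member over the 4 libraries had a median of 0.089 (log2) under the KO label and 0.20 under the WT label, but 0.10 under the WT label without replicate 1. When each library was shifted by the median of its members, the medians were 0.074 under the KO label and 0.075 under the WT label. That shift by construction places the members around 0 and keeps the order of their fold changes, with Rps13 at 0.22.

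The length of the transcript moved with the libraries, most in WT replicate 1. In that library the median deviation of all tested genes was -0.26 for transcripts under 600 bases, -0.20 for 600 to under 1000 bases, -0.096 for 1000 to under 2000 bases, -0.0023 for 2000 to under 4000 bases and 0.061 for 4000 bases and over. Ribosomal proteins in the same library and bins lay lower in each, at -0.43 (13 genes), -0.33 (24 genes), -0.29 (14 genes) and -0.25 (3 genes), with none in the longest bin. WT replicate 3 was low in short transcripts too, at -0.12 under 600 bases and -0.074 for 600 to under 1000 bases. Between the labels the median log2 fold change of all tested genes was 0.12, 0.13, 0.072, 0.012 and -0.042 in the 5 bins, shortest first, and 0.081, 0.079, 0.047, 0.016 and -0.029 without WT replicate 1. The members had medians of 0.21, 0.11, 0.10 and 0.10 in the first 4 of these, so that the 24 members of 600 to under 1000 bases had a median below that of all genes in their bin. Removing from each library its trend with length left a median log2 fold change of 0.015 over the members (-0.0095 in the large and 0.037 in the small subunit), with 30 of 54 above 0, against 48.3% of all genes with a length, and 1 member, Rps13, then had an unadjusted p under 0.05 in limma with a positive fold change, against 5.07% of those genes. WT replicate 1 was still the lowest library for 32 members, and the median of its members was then -0.16. Without WT replicate 1 and with the trend removed as well, the median was -0.034. Then 19 of 54 were above 0, against 48.2% of all genes with a length.

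**Figure D5:**
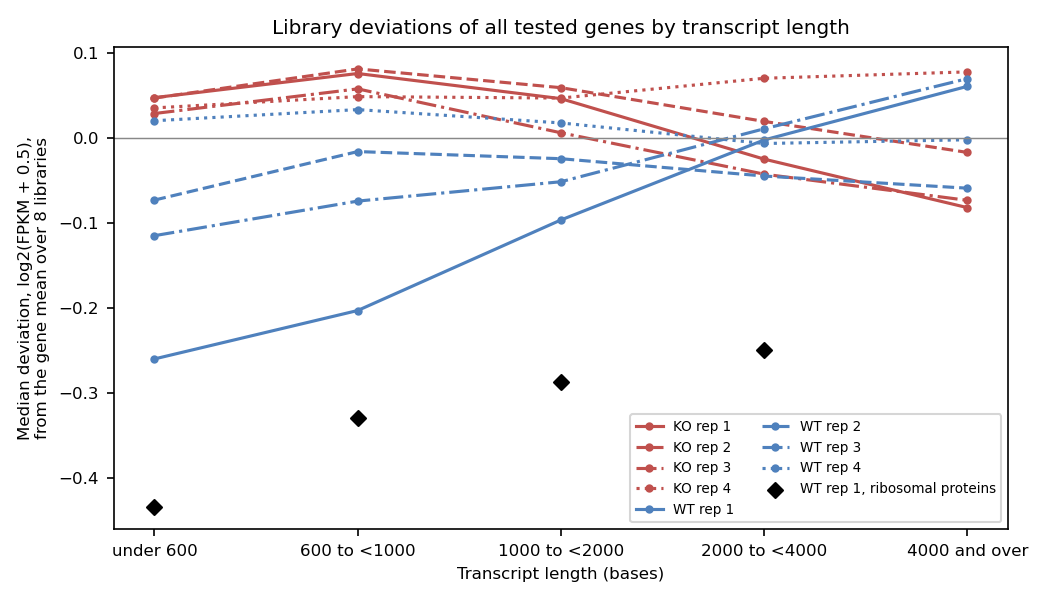
Median deviation of log2(FPKM + 0.5) from the gene mean for all tested genes, by transcript length in bases, 1 line for each library (red KO, blue WT), and as black diamonds the median of the ribosomal proteins in WT replicate 1. The line of WT replicate 1 climbs between -0.26 for the shortest transcripts and 0.061 for the longest, and the diamonds lie below it in each of the 4 bins that hold ribosomal proteins.

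Markers of other cells were read beside these shifts. The 5 erythroid markers, haemoglobins and Alas2, summed to 652 to 3171 FPKM under the KO label and 509 to 1334 FPKM under the WT label, with all 5 log2 fold changes above 0 (median 0.91), and WT replicate 1 had 0.51 of the mean of the other WT libraries. Its sum of 10 macrophage markers was 0.77 of that mean, and the sums ran between 329.9 and 495 FPKM under the KO label and between 296 and 418 FPKM under the WT label. The 13 fibre markers found summed to 57308 to 64921 FPKM under the KO label and 56963 to 62541 FPKM under the WT label, but Tnnt3 at 0 in 4 libraries and Atp2a1 at 0 in 7 weigh on these sums. Without Myh4, Tnnt3 and Atp2a1 the other 10 summed to 49629 to 60619 FPKM under the KO label and 48654 to 62541 FPKM under the WT label, and WT replicate 1 had 0.87 of the mean of the other WT libraries. For the 8 fibroblast markers that ratio was 1.003, with sums of 745 to 1123 FPKM under the KO label and 944 to 1069 FPKM under the WT label. Of these 8 markers 1 had a log2 fold change above 0 (median -0.14). The median was 0.11 for the macrophage markers, with 6 of 10 above 0, and 0.0285 for the fibre markers, with 7 of 12 tested above 0. The 6 adipocyte markers summed to 283 to 456 FPKM under the KO label and 326 to 429 FPKM under the WT label, with a median log2 fold change of -0.41 and 3 of them, Lep, Plin1 and Adipoq, at an unadjusted p under 0.05 in limma, all 3 lower (named after their values were seen). Of 4 tendon markers tested none was above 0 (median -0.45), and the list summed to 43.5 to 120.4 FPKM under the KO label and 64.5 to 131 FPKM under the WT label. For satellite, endothelial, Schwann, and smooth muscle and pericyte markers the medians were -0.045, 0.15, 0.00049 and -0.14, and WT replicate 1 had 0.86, 0.94, 0.90 and 0.96 of the mean of the other WT libraries. Lymphocyte markers summed to 2.69 to 4.14 FPKM under the KO label and 1.92 to 3.25 FPKM under the WT label, with 0.65 of that mean in WT replicate 1. None of these marker genes passed an adjusted p of 0.05 in limma, and the part of cell makeup in the shift of the ribosomal proteins was not tested.

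Ribosomal proteins outside the 54 also lay mostly above 0 with FPKM as deposited. Of 33 others tested, 32 had a log2 fold change above 0, against 54.4% of all tested genes, and none passed the threshold. The count above 0 was 3 with TPM (18.03% of all tested genes) and 18 after quantile normalization (46.6%). Rescaling over genes above 0 in every library left 22 (34.0%). The median was 0.13, and it was 0.056 without WT replicate 1 and 0.0094 with the length trend removed. Without WT replicate 1 and with the trend removed as well, it was -0.032. Then 3 of 32 were above 0, against 48.2% of all genes with a length. Rps24 of the small subunit had 1729, 1655, 1682 and 1848 FPKM in KO-labelled replicates 1 to 4, against 1109.8, 1491, 1429 and 1546 FPKM in WT-labelled replicates 1 to 4. Its groups did not overlap, with a log2 fold change of 0.32 (SE 0.11, limma adjusted p = 0.404), and 0.21 without WT replicate 1. Rps4l, at a mean of 5.79 FPKM, had one of 0.38 (SE 0.18, limma adjusted p = 0.517).

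Genes that make the ribosome or serve it in translation had fold changes of both signs, and their difference from the members was not tested. The medians below are of FPKM as deposited, where all tested genes had 0.019 and 54.4% above 0. Of 11 elongation factors 5 were above 0 (median -0.0040), led by Eef1b2, an exchange factor of eEF1A, at 0.30 (SE 0.16, limma adjusted p = 0.554) and Eef1d, another, at 0.12 (SE 0.09, limma adjusted p = 0.705). Of 37 initiation factors 19 were above 0 (median 0.011). Among them Eif4a2, a helicase, had 0.15 (SE 0.07, limma adjusted p = 0.539) and Eif1, which guards the choice of start codon, had -0.14 (SE 0.07, limma adjusted p = 0.552). Eif1 lay between 404 and 473 FPKM under the KO label and between 481 and 493 FPKM under the WT label, so its groups did not overlap.

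Of 51 factors of ribosome biogenesis 33 were above 0 (median 0.045). Polr1d, a subunit of RNA polymerases I and III, had 0.22 (SE 0.07, limma adjusted p = 0.368), and Taf1c, of the RNA polymerase I factor SL1, had 0.24 (SE 0.10, limma adjusted p = 0.440). Of 20 regulators of TOP mRNAs and mTORC1 9 were above 0 (median -0.0046). Tsc1, which restrains mTORC1, had -0.22 (SE 0.09, limma adjusted p = 0.436) and Eif4ebp2, a translational repressor that mTORC1 inactivates, had -0.15 (SE 0.07, limma adjusted p = 0.523). Of 10 other TOP mRNAs 7 were above 0 (median 0.070). Tpt1, which encodes the tumour protein TCTP, had 0.19 (SE 0.09, limma adjusted p = 0.540), and the entry that joins Gas5 with its small nucleolar RNAs had 0.11 (SE 0.06, limma adjusted p = 0.601). None of the genes in these 5 lists passed an adjusted p of 0.05 in limma.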

How the data were processed

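RNA-seq of quadriceps from 8 mice was analysed. The authors deposited 1 table of FPKM values per library, per the file headers. Per the submitters' processing notes, the build was mm10 and the tools included Cufflinks 2.2.1, Bowtie2 2.2.6, TopHat2 2.1.1 and FastQC; their settings, annotation and strand handling are not given in the sources used here, so genes that overlap others are uncertain. In the deposited data 29 members shared their locus with another named entry, such as a small nucleolar RNA gene or a neighbour. Rpl3 was among them, with 4 such entries, and Rpl3l was not. The entries of Rpl13a and Rpl24 are joined with Flt3l and Zbtb11 in the files. Pseudogenes named after a member came to at most 15.2% of its FPKM (Rps23).

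Each table held 46036 entries, 2379 of them without a name and left out; for a repeated name the entry with the highest mean was used. The 11878 genes averaging 1 FPKM or more were compared with limma 3.58.1 in R 4.3.3 on log2(FPKM + 0.5), which understates changes of low genes, with genotype alone, variances with a mean trend and Benjamini-Hochberg adjustment over all of them. Log2 ratios of paralogs were compared by two-sided exact permutation over 70 assignments of libraries. Depth was roughly estimated from low values of genes with a single transcript. FPKM was multiplied by the length in kilobases, less 200 bases, and only results between 0.01 and 0.029 were used. That window bounds the estimate in advance. The deposited data hold no counts, so no counting interval is given. Transcript lengths are medians over the transcripts of a gene in the first principal class of GENCODE M21. For a gene with no such transcript the median over its basic transcripts was used. For an entry of joined names the first name with a length was used. Other pseudocounts, filters, scalings, variance models, a replicate block and removal of the length trend (lowess, span 0.3) were tried, and each library was left out in turn. Shifting by the members' median, the joint removal of WT replicate 1 and the length trend, and the leave-one-out of the correlation were added after the data were seen. The members and all lists were chosen with earlier results of these data known. Values by library are given for both paralog pairs, members with an unadjusted p under 0.05, and the 2 highest and 2 lowest fold changes of each subunit. Rpl34, Rplp0 and Rpsa were added after their values were seen, since their groups did not overlap. From each other list of ribosome and translation genes the 2 genes with the smallest p are named, and marker lists are given as sums. The pipeline was tested on simulated data.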

Additional observations from a re-analysis of the deposited data

Results flagged for a closer look

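In groups of 4 libraries, a highest or lowest value is given here when its gap to the nearest other library exceeds, as a share of the range of the group, Dixon's 95% critical value. Of 66 such groups of named genes 7 did so, and chance gives about 1 in 20. Among the ribosomal proteins, KO replicate 1 was the lowest of the KO-labelled libraries for Rps13 (648 FPKM), and KO replicate 4 for Rpl37 (105 FPKM). WT replicate 1 was the lowest of the WT-labelled libraries for Rps13 (486 FPKM) and for Rpl34 (1267 FPKM), and also for Eif4a2 (252 FPKM). Among other genes, KO replicate 1 was the highest of its group for Mss51 (339.6 FPKM), and KO replicate 3 for Tsc1 (8.65 FPKM). These genes share the same 8 libraries, so these values are not independent of each other.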

How the results depend on the processing

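No member passed an adjusted p of 0.05 in limma under any alternative run. With TPM the median log2 fold change was -0.076 over the members, -0.11 in the large and -0.055 in the small subunit; with quantile normalization it was -4.4e-05 over the members, -0.0095 in the large and 0.013 in the small subunit; without WT replicate 1 and with the length trend removed it was -0.034, -0.046 and -0.014. With single libraries left out the median ran between 0.043 and 0.19 over the members, 0.029 and 0.18 in the large and 0.072 and 0.21 in the small subunit. The count of all tested genes past the threshold, 6, was 123 with TPM, 3 without WT replicate 1 and the length trend, and 4 to 125 with single libraries left out, the 125 without KO replicate 1.

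Rpl3l turned to -0.14 with TPM, -0.019 rescaled over genes above 0 in every library, -0.066 with quantile normalization, -0.0095 with the length trend removed, -0.056 shifted by the members' median and -0.025 without WT replicate 1 and the trend. Rpl3 turned to -0.11 with TPM, -0.032 with that shift and -0.046 without WT replicate 1 and the trend. In the same order as for Rpl3l, Rps6 turned to -0.20, -0.085, -0.10, -0.11, -0.12 and -0.12, and to -0.0023 with pseudogenes added; Rps28 to -0.19, -0.073, -0.10, -0.13, -0.11 and -0.13; and Eef1a2 to -0.17, -0.056, -0.11, -0.0013, -0.093 and -0.0081. TPM also turned Rpsa (-0.059), Eif4a2 (-0.067), Tpt1 (-0.029), Eef1d (-0.091) and Gas5 (-0.11). The shift turned Eef1d (-0.011) and Gas5 (-0.026), removal of the length trend turned Gas5 (-0.040), and that removal without WT replicate 1 turned Eef1d (-0.0042). With single libraries left out, log2 fold changes ran between -0.056 and 0.020 for Rpl4, -0.056 and 0.059 for Rpl37, -0.039 and 0.045 for Rps6, -0.029 and 0.059 for Rps28, and -0.11 and 0.031 for Eef1a1. Differences of the log2 paralog ratio ran between -0.093 and 0.040 for Rpl3l over Rpl3, -0.12 and 0.046 for Rpl22l1 over Rpl22, and -0.011 and 0.14 for Eef1a2 over Eef1a1. The correlation of Rpl3 with Rpl3l ran between -0.012 and 0.61. The cause of these changes was not tested, beyond the fewer libraries or genes of some alternatives.

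With the replicate number as a block, 0 genes passed the threshold in limma (958 had an unadjusted p under 0.05), Mss51 kept its log2 fold change of 3.07 at an adjusted p of 0.0530, and the difference for Rpl3l over Rpl3 stayed at -0.024 (exact permutation p = 0.875). Same-numbered libraries of the 2 labels did not deviate together (r between -0.081 and 0.0093), so the numbers do not pair them. Without counts, the depth behind single values is known only roughly, and the number of libraries limits the precision.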
